A study of Mus musculus with 6 samples.

Results

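The vessel genes Angpt1, Angpt2, Tek, Tie1, Ptprb, Apln, Aplnr and Esm1 were followed through single-cell libraries of mouse pancreatic tumours. They were taken by symbol, 8 of the 32285 genes listed in every deposited matrix. The tumours came from KPC mice, which carry P53LSL.R172H/+ and Pdx1-Cre among their alleles, so that mutant p53 is switched on in the pancreatic lineage while vessels and stroma stay unrecombined. Both groups shared this genotype. IPI-926, an inhibitor of the Hedgehog transducer Smoothened, was given to 3 mice by oral gavage at 40 mg/kg daily for 2 days, and 3 mice received the vehicle, hydroxypropyl-beta-cyclodextrin. Each tumour was taken 2 hours after the last dose, dissociated with trypsin and other enzymes, cleared of red cells and made into 1 10x Genomics Single Cell 3' v3 library. The design allows 1 comparison, IPI-926 against vehicle, and it was made in 6 cell classes and in the sum of all kept cells.

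The angiopoietins are secreted ligands of the endothelial receptor tyrosine kinase Tie2, the product of Tek. Angpt1, made by mural and mesenchymal cells, activates Tie2 and keeps vessels quiet, while Angpt2, released by endothelial cells, mostly antagonises it and loosens vessels for sprouting. Tie1 is a relative of Tie2 that modulates its signal, and Ptprb encodes VE-PTP, the endothelial phosphatase that dephosphorylates Tie2. Apelin, from Apln, is a peptide made by sprouting tip cells, Aplnr is its G protein-coupled receptor, and Esm1 encodes endocan, a proteoglycan secreted by tip cells and widely used to mark VEGF-driven sprouting. Hedgehog ligand made by epithelial tumour cells acts on stromal cells, and angiopoietins are among the products reported to respond in such cells.

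The 6 libraries held 62905 cell barcodes and 718531446 UMIs (unique molecular identifiers, each counting 1 captured RNA molecule), between 100810942 and 174929328 UMIs per library. After filters and doublet removal 49797 cells were kept, and marker genes that exclude the 8 genes put 38299 of them in named classes. Endothelial cells numbered 301, 247 and 589 in vehicle replicates 1 to 3 and 167, 81 and 336 in IPI-926 replicates 1 to 3. They were 2.88% to 8.52% of kept cells in the vehicle libraries and 1.31% to 2.37% in the IPI-926 libraries, without overlap, but their shares of kept UMIs overlapped, 2.22% to 3.81% against 1.65% to 2.35%. Perivascular cells numbered 417 and fibroblasts 5802. The summed level of the endothelial markers in the endothelial class was 8129 to 11284 CPM (UMI counts scaled to a common total per library and class) in vehicle and 8141 to 9603 CPM in IPI-926 libraries. IPI-926 replicate 3 stood apart: of its 4149 fibroblasts nearly all fell in 3 clusters, of 2260, 1808 and 28 cells, that hardly any other library supplied. The larger ones were led by Crabp1 or Crabp2, genes of retinoic acid binding proteins. Only 3 of its 336 endothelial cells were in the tip-like group described further on. Acinar markers summed to 22.3 to 240.4 CPM in vehicle endothelial cells against 1.93 to 7.53 CPM in IPI-926 ones, and ductal markers to 148 to 1428 against 95.4 to 178.8 CPM. Their part in the results below was not tested.

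Tek, Tie1, Ptprb, Aplnr, Apln and Esm1 were genes of the endothelial class, and Angpt2 was shared by endothelial and perivascular cells. Among the named classes Angpt1 had its highest median levels in fibroblasts and perivascular cells. The levels below are CPM of the UMIs summed over the cells of a class in a library, and they were not used to set the classes. Classes are described against each other without a test, because they come from clusters of the same cells. CPM of a 3' library counts molecules without regard to gene length.

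Angpt1 (ENSMUSG00000022309, chr15:42424723-42676977, minus strand of GRCm38) was highest in fibroblasts, with 30.7 CPM in the lowest library, a median of 52.7 and 111 in the highest. Perivascular cells came next at 8.86, 27.7 and 36.8 CPM, and these ranges overlapped. Mesothelial cells, next in order, had a median of 1.16 CPM and did not reach the perivascular range. Ductal epithelial cells had nearly the same median but reached 10.6 CPM in their highest library, above the lowest perivascular value. Fibroblasts held 84.3% of the 6356 Angpt1 UMIs of kept cells, between 22.3% and 94.1% in single libraries. Clusters without a name held 8.43%, between 0.682% and 66.2% in single libraries. They held more than fibroblasts in vehicle replicate 1, 48.1% against 31.5%, and in IPI-926 replicate 2, 66.2% against 22.3%. IPI-926 replicate 3 supplied 3081 of the pooled Angpt1 UMIs. Endothelial cells contributed 11 Angpt1 UMIs in all.

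Angpt2 (ENSMUSG00000031465, chr8:18690263-18741562, minus strand) had its highest level in endothelial cells, 66.4 CPM in the lowest library, a median of 118 and 202 in the highest. Perivascular cells followed at 27.8, 52.8 and 89.3 CPM, overlapping the endothelial range, and macrophages came after them with a median of 1.21 CPM, outside it. Endothelial cells supplied 65.3% of its 2974 UMIs, unnamed clusters 12.9%, fibroblasts 6.76% and perivascular cells 5.35%. The fibroblast share came mostly from IPI-926 replicate 3, where it was 32.7%, and was 0.826% without that library.

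With UMIs of all libraries pooled, the Tie receptor genes had the largest endothelial shares of the 8 genes. By the median over libraries Esm1, at 91.4%, lay between Tie1, at 93.3%, and Tek, at 89.1%. Tek (ENSMUSG00000006386, chr4:94739289-94874976, plus strand) ranged from 104 to 215 CPM in endothelial cells with a median of 112, and the next class, fibroblasts, had a median of 1.07 CPM. Tie1 (ENSMUSG00000033191, chr4:118471191-118490061, minus strand) was the steadiest gene across libraries, at 270 to 313 CPM in endothelial cells and a median of 1.33 CPM in perivascular cells. Endothelial cells held 89.5% of the Tek UMIs and 90.8% of the Tie1 UMIs. Ptprb, with 85.4% of its UMIs in endothelial cells (ENSMUSG00000020154, chr10:116275523-116389535, plus strand) ranged from 455 to 1180 CPM there, and fibroblasts followed with a median of 10.0 CPM. For each of these genes the endothelial range lay wholly above that of every other class.

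The apelin receptor Aplnr (ENSMUSG00000044338, chr2:85136225-85139923, plus strand) ranged from 253 to 484 CPM in endothelial cells, which held 87.4% of its UMIs. Fibroblasts had a median of 14.6 CPM of Aplnr, and the lowest of them, IPI-926 replicate 3, had 0.583. The ligand Apln (ENSMUSG00000037010, chrX:48025146-48034853, minus strand) was less restricted, with 52.1% of its 4907 UMIs in endothelial cells, 24.1% in fibroblasts and 20.1% in unnamed clusters. Both of the latter pooled shares were raised by single libraries. Fibroblasts held 11.1% without IPI-926 replicate 3, where they held 55.8%. Unnamed clusters held 11.9% without vehicle replicate 1, where they held 58.5%. In the remaining libraries fibroblasts held from 0.364% (vehicle replicate 3) to 23.2% (IPI-926 replicate 1). Unnamed clusters held from 0.349% (IPI-926 replicate 3) to 37.5% (IPI-926 replicate 2) there. The endothelial Apln level of 86.2 to 262 CPM nevertheless lay above the 0.253 to 17.5 CPM of fibroblasts. Most unnamed Apln came from 1 cluster of 917 cells led by Cxcl13 and Pappa, with Wt1 also among its top genes, at 35.2 CPM.

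Esm1 (ENSMUSG00000042379, chr13:113209659-113218098, plus strand) ranged from 154 to 328 CPM in endothelial cells, with a median of 216 CPM, and these held 77.3% of its UMIs. Fibroblasts held 12.9%, but 1.62% without IPI-926 replicate 3, where they held 38.3%. By median level the second class was T and NK cells, with 16.1, 12.8 and 8.49 CPM in vehicle replicates 1 to 3 and 2.59, 3.61 and 20.3 CPM in IPI-926 replicates 1 to 3. These levels rest on 4, 14, 1, 5, 2 and 126 UMIs in that order. The T and NK cells together held 152 Esm1 UMIs against 1 UMI of Tek and 6 of Tie1, while endothelial cells held 3444, 1906 and 4264 UMIs of these genes. Cells were then thinned to 2000 UMIs, and shallower cells were left out, here and wherever cells are thinned. Of the 1977 T and NK cells used, out of 2948, 2.43% had an Esm1 UMI, against 0.223% of 8531 macrophages and monocytes. This share rests on IPI-926 replicate 3, which supplied 39 of the 48 such cells, and was 0.971% without it. Of thinned fibroblasts 0.689% had an Esm1 UMI.

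**Figure D1:**
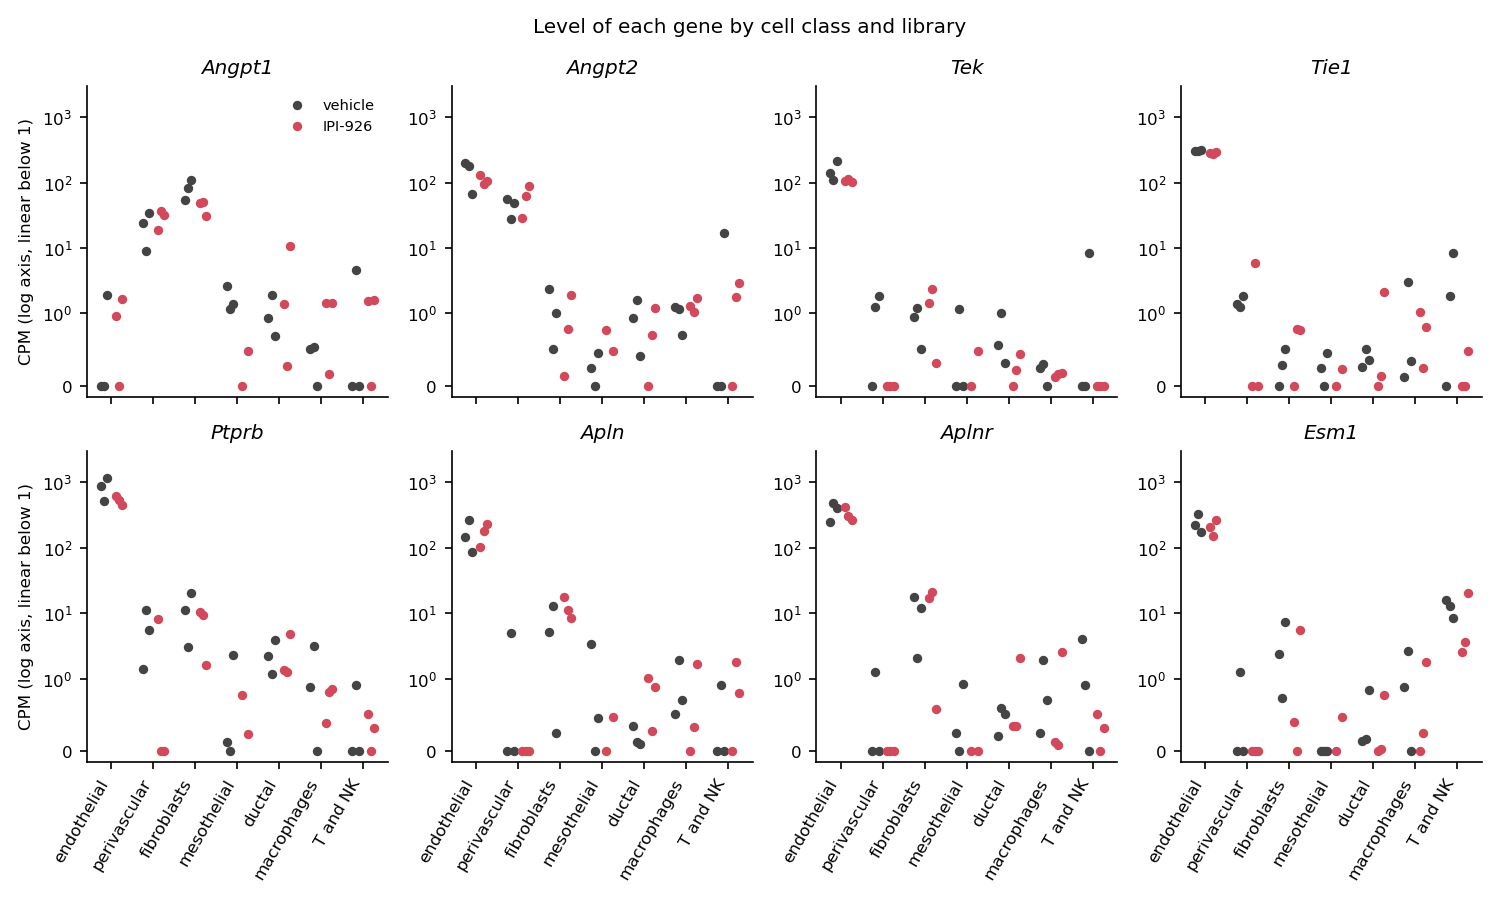
CPM of each gene (vertical axis, logarithmic above 1 and linear below) in 7 cell classes, 1 point per library with at least 20 cells of the class, vehicle in grey and IPI-926 in red. Tek, Tie1, Ptprb, Apln, Aplnr and Esm1 stand apart in endothelial cells, and Angpt1 stands highest in fibroblasts.

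The plot of UMI sources shows the same genes as shares rather than levels. It makes visible that Apln and Angpt2 had sizeable sources outside the endothelium, while Tek, Tie1, Ptprb and Aplnr had little.

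**Figure D2:**
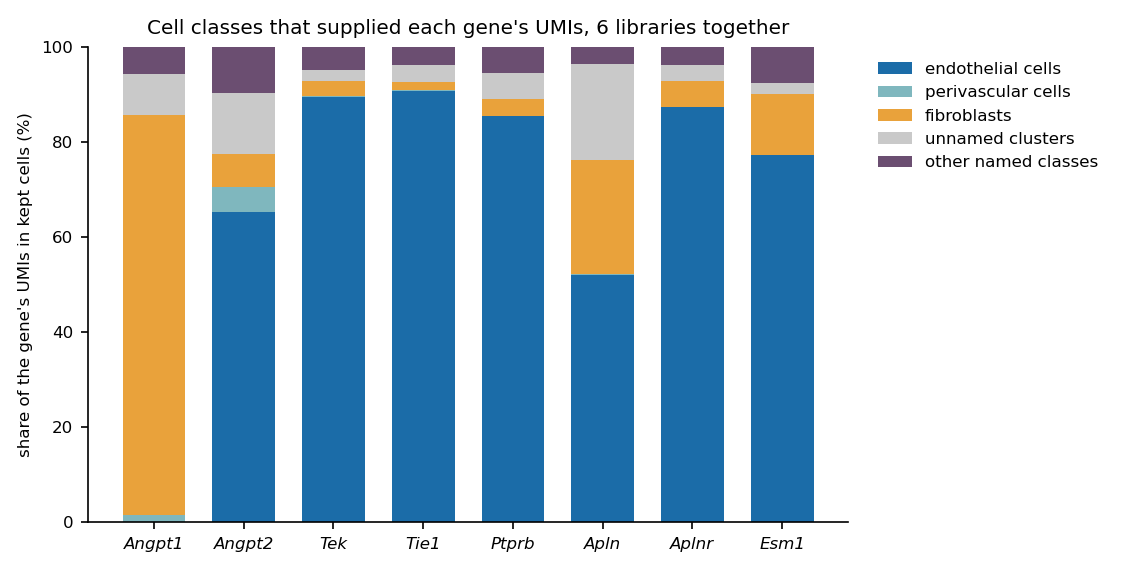
Percentage of each gene's UMIs in kept cells (vertical axis) supplied by endothelial cells, perivascular cells, fibroblasts, unnamed clusters and the other named classes, all libraries together. Fibroblasts supplied 84.3% of Angpt1, and endothelial cells between 52.1% (Apln) and 90.8% (Tie1) of the others.

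The genes with the most similar profiles were sought over 65 sums of a class in a library, among 12309 genes, by Pearson's r of log2(CPM + 1). These sums share libraries and depth, so r is a description without a test. Tek and Tie1 had each other among their closest genes (r = 0.956), with Dipk2b closest to Tek (r = 0.958). Tie1 was also close to Gm32688 (0.953) and Exoc3l (0.952). Angpt2 was closest to Tcf15 (0.912), Pcdh12 (0.894) and Gja4 (0.881), the last an arterial connexin, and Ptprb to Sema3g (0.910), Mmrn2 (0.909) and Thsd1 (0.900). Apln and Aplnr shared Lhx6 (0.942 and 0.922) and Ccm2l (0.907 and 0.935) among their 3 closest genes, and Vwa1 (0.913) and Meox1 (0.911) completed them. Esm1 was closest to She (0.913), Gpihbp1 (0.902), a capillary protein that anchors lipoprotein lipase, and Exoc3l (0.901). Angpt1 was closest to Calhm5 (0.895), Gpc6 (0.870) and Lama2 (0.869), a laminin chain of mesenchymal cells.

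The start regions of Tek, Tie1, Apln and Esm1 are printed, the 4 of the 8 genes for which the promoter set used here held a sequence. Each is the 250 bases before the RefSeq start, read 5′ to 3′ on the gene's strand from RefSeq on GRCm38.p6, with the ETS core GGAA (or TTCC, its reverse complement) in capitals, since ETS factors are general activators of endothelial genes. The regions are chr4:94739039-94739288 (plus strand) for Tek, chr4:118489850-118490099 (minus strand) for Tie1, chrX:48034854-48035103 (minus strand) for Apln and chr13:113209409-113209658 (plus strand) for Esm1. Most of the Tie1 region lies inside the gene as GENCODE places it, chr4:118471191-118490061, because the RefSeq start differs.
Tek: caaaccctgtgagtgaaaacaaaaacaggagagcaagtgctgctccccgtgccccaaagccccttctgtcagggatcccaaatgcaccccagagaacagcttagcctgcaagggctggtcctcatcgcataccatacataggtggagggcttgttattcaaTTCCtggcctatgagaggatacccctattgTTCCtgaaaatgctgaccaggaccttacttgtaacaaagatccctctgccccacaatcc
Tie1: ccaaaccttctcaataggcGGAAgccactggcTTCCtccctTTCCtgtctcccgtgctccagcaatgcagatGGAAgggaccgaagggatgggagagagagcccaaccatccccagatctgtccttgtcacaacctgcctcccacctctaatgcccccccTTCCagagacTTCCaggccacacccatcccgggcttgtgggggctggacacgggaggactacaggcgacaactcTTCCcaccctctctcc
Apln: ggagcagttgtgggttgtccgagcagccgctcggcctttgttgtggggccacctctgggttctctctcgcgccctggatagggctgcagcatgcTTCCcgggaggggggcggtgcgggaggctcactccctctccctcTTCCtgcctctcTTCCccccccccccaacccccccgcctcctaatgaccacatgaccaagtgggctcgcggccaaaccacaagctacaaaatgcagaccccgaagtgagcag
Esm1: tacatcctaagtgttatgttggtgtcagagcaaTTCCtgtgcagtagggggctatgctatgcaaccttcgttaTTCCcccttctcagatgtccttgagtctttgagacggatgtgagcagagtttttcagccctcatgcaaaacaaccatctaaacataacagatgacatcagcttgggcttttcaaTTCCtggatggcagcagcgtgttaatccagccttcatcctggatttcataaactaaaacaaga
The Tie1 region held 7 cores, Apln and Esm1 3 each and Tek 2. Of 32851 promoters of this length, 93.4% held at least 1, the median was 3, and 3.82% held as many as Tie1 or more. The low-oxygen factor core (ACGTG or GCGTG, both strands), present in 38.6% of promoters, matched once in Esm1 and in none of the other 3. The GATA core GATAA (22.6% of promoters) and the Gli site TGGGTGGTC (0.225%), which would bind the Hedgehog effectors, matched in none of the 4, both strands searched. A match is letters only, not a bound site.

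Within the endothelium 6 of the 8 genes differed in level between the named groups of cells. Tie1 varied little between these groups, and Angpt1 had too few UMIs to compare. Sub-clusters were made without these genes and named from other markers: 270 tip-like, 363 arterial-like, 191 venous-like and 88 lymphatic-like cells. The other 809 stayed unnamed, among them 247 interferon- and MHC-led cells all of IPI-926 replicate 3, and 179 cells with venous markers but led by the epithelial genes Gkn3 and Tff2. Values pool the libraries and have no test.

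Of the named groups, tip-like cells had the highest pooled levels of Esm1 and Apln. Esm1 reached 480 CPM there, against 208 in arterial-like, 15.5 in venous-like and 0 in lymphatic-like cells, and Apln 321 CPM against 11.2, 99.3 and 0. A count of 0 in the lymphatic-like cells allows up to 2.45 CPM, by a limit of 3 counts that covers counting error only. Tip-like cells held 45.4% of the endothelial Esm1 UMIs and 40.9% of the Apln UMIs, and the unnamed endothelial cells 41.4% and 51.9%. The unnamed cells had 227 CPM of Esm1 and 211 CPM of Apln, and the 247 unnamed cells of IPI-926 replicate 3 had 321 and 265 CPM, so neither gene was confined to the tip-like group. In vehicle replicate 2 the 16 arterial-like cells had more Esm1, 611 CPM, than the tip-like cells of that library. In single tip-like libraries with at least 20 cells, Esm1 had 555, 521 and 533 CPM in vehicle replicates 1 to 3 and 418 CPM in IPI-926 replicate 1. In the same libraries Apln had 401, 364 and 344 CPM against 80.8. The 17 tip-like cells of IPI-926 replicate 2 had 260.3 CPM of Esm1 and 314 CPM of Apln, and IPI-926 replicate 3 had 3 such cells, so no test between the groups could be made in these cells.

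Tek and Ptprb were instead lower in tip-like than in arterial-like and venous-like cells. Among the named groups Tek was highest in venous-like cells, 225 CPM, followed by 182 in arterial-like, 92.6 in tip-like and 66.2 in lymphatic-like cells. The 179 unnamed cells with venous markers had more, 337 CPM. Within IPI-926 replicate 1 Tek had 103 CPM in tip-like and 99.0 CPM in arterial-like cells. Ptprb was highest in arterial-like cells, 1375 CPM, with 1115 in venous-like, 607 in tip-like and 233 in lymphatic-like cells. Vehicle replicate 3 supplied 240 of the 363 arterial-like cells, and within vehicle replicate 1 and IPI-926 replicates 1 and 3 Ptprb was higher in venous-like than in arterial-like cells, 1584 against 1437, 1017 against 907 and 1160 against 1137 CPM. Tie1 varied least between the named groups, from 252 CPM in lymphatic-like to 353 in arterial-like cells. The unnamed sub-clusters ran from 53.0 to 434 CPM of Tie1. Aplnr had 443 CPM in venous-like, 432 in tip-like and 293 in arterial-like cells and no UMI in lymphatic-like cells. Within vehicle replicate 2 the 16 arterial-like cells had more Aplnr than the tip-like cells, 504 against 467 CPM. Within IPI-926 replicate 1 the 12 arterial-like cells had 469 CPM, against 438 in tip-like and 399 in venous-like cells. The pooled Aplnr level of the 179 unnamed cells with venous markers was higher, 758 CPM. Inside the arterial-like group, 65 cells led by the connexin gene Gja5 differed from the other arterial-like cells, with 5.20 CPM of Aplnr and 15.6 of Esm1 but 1722 of Ptprb.

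With libraries pooled, Angpt2 had its highest level in lymphatic-like rather than blood vessel cells. Lymphatic-like cells had 550 CPM, tip-like cells 179, venous-like cells 44.7 and arterial-like cells 9.73. In IPI-926 replicate 2, 9 lymphatic-like cells had 171 CPM and 17 tip-like cells 161. In IPI-926 replicate 3, 16 lymphatic-like cells had 286 CPM, and 4 venous-like cells had 474 CPM from 9 UMIs. Although lymphatic-like cells were 5.11% of endothelial cells, they held 34.7% of the endothelial Angpt2 UMIs, and tip-like cells 30.1%.

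**Figure D3:**
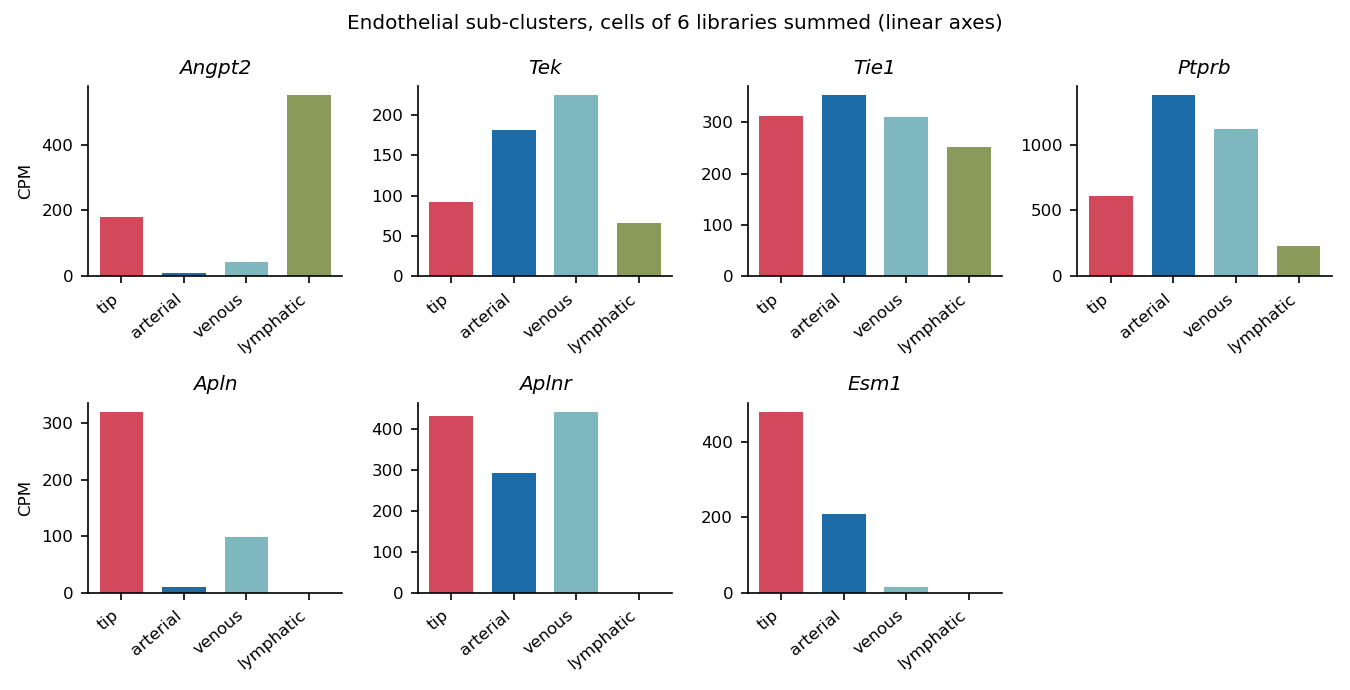
CPM of 7 genes (vertical axes, linear from 0, each gene with its own scale) in tip-like, arterial-like, venous-like and lymphatic-like endothelial cells, libraries pooled, so the bars have no error. Unnamed endothelial cells are not drawn. Among the pooled values shown, Esm1 and Apln peak in tip-like cells, Tek in venous-like, Ptprb in arterial-like and Angpt2 in lymphatic-like cells.

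Detection in single endothelial cells followed the same division. In 1414 cells thinned to 2000 UMIs, Esm1 was detected in 39.1% of cells with an Apln UMI and in 15.2% of those without one. Among cells with Angpt2, 37.1% had Esm1 against 16.2% of cells without it, and 30.1% had Apln against 11.1%. Tek went the other way: 11.2% of Esm1-positive cells had a Tek UMI against 29.1% of Esm1-negative cells. Ptprb was found in 46.9% of Angpt2-positive cells and in 72.3% of Angpt2-negative cells. Cells of 1 library are not replicates, so these shares are descriptions.

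After IPI-926, none of the 7 endothelial genes that could be tested differed from vehicle beyond the spread between libraries, and for none did the groups separate. Values are scaled CPM, that is CPM after TMM scaling between libraries, in vehicle replicates 1, 2 and 3 and then IPI-926 replicates 1, 2 and 3. Fold changes are log2 of IPI-926 over vehicle with the SE from edgeR's quasi-likelihood fit. The p-values measure the spread between these libraries, each from 1 tumour.

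Angpt2 had 203, 188 and 61.5 scaled CPM in vehicle endothelial cells and 136, 99.5 and 108 after IPI-926. The IPI-926 libraries lay between the vehicle libraries, and the log2 fold change was -0.40 (SE 0.42). Without the lymphatic-like cells, an alternative chosen after seeing the data, it was 0.17. Tek had 142, 113 and 199 scaled CPM in vehicle and 112, 119 and 105 after IPI-926, a log2 fold change of -0.44 (SE 0.22). Vehicle replicates 1 and 3 stood above all IPI-926 libraries and vehicle replicate 2 among them.

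Tie1 had 307, 309 and 290 scaled CPM against 297, 280 and 291. Its log2 fold change of -0.06 had the smallest SE of the 7, 0.14. Ptprb had 874, 544 and 1094 scaled CPM against 655, 556 and 460, a log2 fold change of -0.59 (SE 0.27). As for Tek, vehicle replicate 2 lay among the IPI-926 libraries. The fold of Ptprb was -0.81 without that library and -0.34 without vehicle replicate 3.

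Apln had 146, 271 and 79.9 scaled CPM in vehicle and 109, 187 and 234 after IPI-926, with a log2 fold change of 0.09 (SE 0.48). Its receptor Aplnr had 254, 501 and 378 against 445, 316 and 272, a log2 fold change of -0.13 (SE 0.28). Esm1 had 228, 339 and 159 against 214, 159 and 270, a log2 fold change of -0.17 (SE 0.30). In each of these genes vehicle libraries differed among themselves by more than the groups did. The sign of the Apln, Aplnr and Esm1 folds changed when single libraries were left out.

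Adjusted p-values (edgeR, Benjamini-Hochberg over 10343 genes) of the 7 genes were 0.978 to 0.990. Of all genes tested in endothelial cells edgeR called 0, so the background is 0%. At an unadjusted p under 0.05 there were 367, and DESeq2 called 7 and limma-voom 0, none of them among the 8. The groups did not overlap for 0 of the 7 genes, against 10% of all genes. These tests bound the differences loosely: an SE of 0.48 leaves room for a sizeable change of Apln in either direction.

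**Figure D4:**
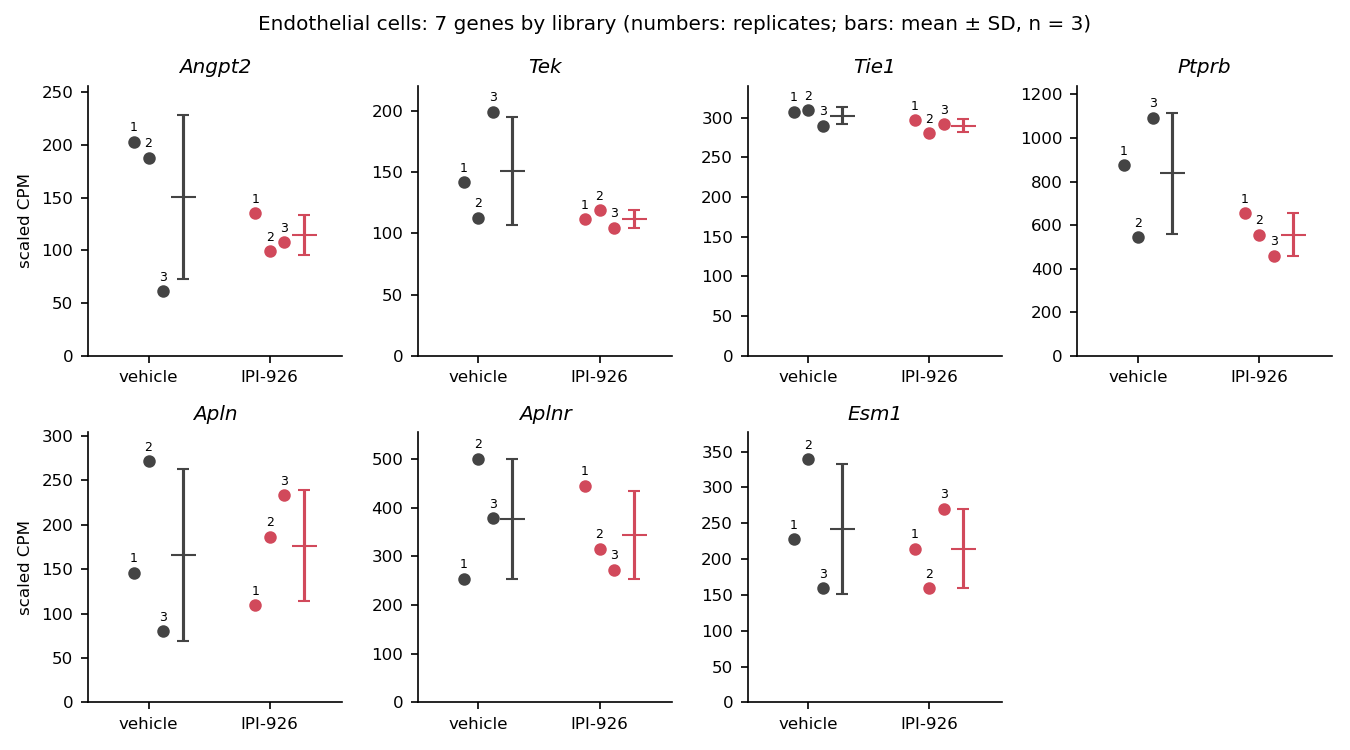
Scaled CPM (vertical axes from 0) of 7 genes in endothelial cells of each library, with replicate numbers beside the points and the mean ± SD of 3 libraries beside each group. The vehicle and IPI-926 points overlap for every gene, and Tie1 varies least, from 280 to 309.

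The share of endothelial cells with a UMI gave no difference either. With cells thinned to 2000 UMIs, Ptprb was detected in 73.2% ± 13.5 (SD, n = 3) of vehicle and 63.2% ± 11.9 of IPI-926 endothelial cells (exact permutation test, two-sided, p = 0.4), and Tie1 in 48.6% ± 1.06 and 42.8% ± 6.28 (exact p = 0.3). Without thinning, Ptprb was detected in 85.5% and 82.3% and Tie1 in 71.1% and 72.4%. Angpt2 was detected in 12.4% ± 6.27 and 8.94% ± 1.84 (exact permutation p = 0.5), and Esm1 in 19.5% ± 7.32 and 18.1% ± 3.81 (exact permutation p = 0.8). A design of 3 libraries against 3 cannot give a p below 0.1 in this test. Tie1 reached that floor at 1000 UMIs per cell, 29.3% against 20.6%, with no overlap, while at 4000 UMIs its shares were 66.6% and 64.1% (exact permutation p = 0.7). For comparison, thinned fibroblasts and T and NK cells, which should lack Tie1, had it in 0.143% and 0.152% of cells.

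In the lymphatic-like cells the groups did not overlap in Angpt2, as was the case for 9.79% of the 5618 genes with at least 30 UMIs there, 5.93% in the same direction. Vehicle replicates 1, 2 and 3 had 29, 14 and 11 such cells with 585, 1321 and 907 CPM of Angpt2, and IPI-926 replicates 1, 2 and 3 had 9, 9 and 16 cells with 213, 171 and 286 CPM. Every vehicle library was above every IPI-926 library. The libraries lie under the 20 cells required for a test, apart from vehicle replicate 1, and the values rest on 30 to 253 UMIs, so no test was made. In all other endothelial cells Angpt2 had 117, 119 and 38.1 CPM in vehicle and 123, 81.1 and 93.9 CPM in IPI-926 libraries, and the groups overlapped. Lymphatic-like cells held 52.7%, 37.9% and 44.4% of the endothelial Angpt2 UMIs in the vehicle libraries and 11.2%, 29.4% and 18.0% in the IPI-926 libraries.

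In perivascular cells the ligands Angpt1 and Angpt2 had enough counts to be tested. Angpt1 had 24.8, 9.52 and 36.0 scaled CPM in vehicle and 19.4, 39.5 and 31.9 after IPI-926, a log2 fold change of 0.36 (SE 0.49). Angpt2 had 58.4, 29.9 and 51.2 against 29.1, 66.5 and 90.4, a log2 fold change of 0.31 (SE 0.42). Both overlapped between the groups (0 of 2 separated, against 7.32% of all genes), and both adjusted p-values were 0.99998 with edgeR. Of 6940 genes edgeR called 0 (0%), 165 had an unadjusted p under 0.05, DESeq2 called 9 and limma-voom 0. The other 6 genes had 1 to 19 UMIs in these cells and were not tested. Each library had 30 to 113 perivascular cells, so only large differences could be seen.

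In fibroblasts, the main source of Angpt1 with libraries pooled, the groups separated for that gene without passing the threshold. Angpt1 had 54.2, 85.2 and 106 scaled CPM in vehicle and 50.8, 50.6 and 31.6 after IPI-926, lower in all 3 IPI-926 libraries. The log2 fold change was -0.90 (SE 0.33), with an adjusted p of 0.901 from edgeR over 12210 genes. Over the alternatives it ranged from -1.17 to -0.66, with adjusted p between 0.354 and 0.99997. It was -0.94 without the fibroblast clusters of IPI-926 replicate 3 and -0.69 without that library. In the 930 fibroblasts led by Serpine2 and Mgp, Angpt1 had 81.4, 150 and 115 CPM in vehicle replicates 1 to 3 and 65.5 and 97.2 CPM in IPI-926 replicates 1 and 2, which overlapped. In the 776 fibroblasts led by Svep1 and Sfrp1 its level was lower and also overlapped, 7.81 and 26.7 CPM in vehicle replicates 1 and 2 against 22.1, 11.6 and 24.2 in the IPI-926 libraries. The fibroblasts that only IPI-926 replicate 3 supplied had 19.5 CPM in the cluster led by Crabp2 and 31.9 in the one led by Crabp1 and Cthrc1.

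Of the other genes tested in fibroblasts, Apln had 5.14, 13.1 and 0.242 scaled CPM against 18.2, 11.1 and 8.70 (log2 fold change 0.98, SE 0.99). Ptprb had a fold of -0.67 (SE 0.90), Esm1 of -0.38 (SE 1.27) and Aplnr of 0.32 (SE 1.27). The groups of these 4 genes overlapped, so 1 of 5 genes separated, against 9.68% of all genes. In fibroblasts edgeR called 0 of 12210 genes (0%), 458 had an unadjusted p under 0.05, DESeq2 called 29 and limma-voom 0, none of them among the 8. Acinar markers in fibroblasts summed to 15.9 to 269 CPM in vehicle and 4.26 to 15.8 CPM in IPI-926 libraries, and their part in the Angpt1 values was not tested.

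Angpt4 (ENSMUSG00000027460, chr2:151911210-151945337, plus strand), another ligand of Tie2 and one of the pathway partners listed for comparison, was lower in the fibroblasts of every IPI-926 library. It had 47.2, 28.9 and 30.5 scaled CPM in vehicle replicates 1 to 3 and 2.62, 0.791 and 7.53 in IPI-926 replicates 1 to 3, from 101, 499, 126, 19, 1 and 692 UMIs. Every vehicle library was above every IPI-926 library. Of the 18 listed partners tested in fibroblasts the groups did not overlap for 2, against 9.68% of all genes. The log2 fold change of Angpt4 was -3.03 (SE 0.62), with an adjusted p of 0.901 from edgeR, so it did not pass. DESeq2 gave -3.08 with an adjusted p of 0.0015, and over all alternatives the adjusted p ranged from 0.0015 to 0.9996 and the fold from -4.01 to -2.43. Without IPI-926 replicate 3 the fold was -4.01 (edgeR, adjusted p = 0.483), and without that library's own fibroblast clusters it was -3.18 (edgeR, adjusted p = 0.978).

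The lower Angpt4 appeared within fibroblast clusters that several libraries shared. Among the fibroblasts led by Serpine2 and Mgp it had 58.5, 30.5 and 31.4 CPM in vehicle replicates 1 to 3 against 3.21 CPM in IPI-926 replicate 1 and 0 UMIs in replicate 2, which allows up to 5.21 CPM. Among those led by Svep1 and Sfrp1 it had 28.6 and 26.6 CPM in vehicle replicates 1 and 2 against 1.40, 1.45 and 11.5 CPM in the IPI-926 libraries. Fibroblasts held 91.7% of the 1568 Angpt4 UMIs of kept cells, and endothelial cells held 3. The Hedgehog targets Gli1 and Ptch1 had 10.4 to 12.6 and 14.8 to 31.6 CPM in vehicle fibroblasts against 0.159 to 1.58 and 3.19 to 9.49 CPM after IPI-926. The groups did not overlap, as for 9.68% of all genes, and edgeR called 0 of 12210 genes in fibroblasts. Gli1 had 0 CPM in the cluster led by Crabp2 and 0.177 in that led by Crabp1 and Cthrc1, both nearly all of IPI-926 replicate 3. The part of these clusters in the values was not tested.

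**Figure D5:**
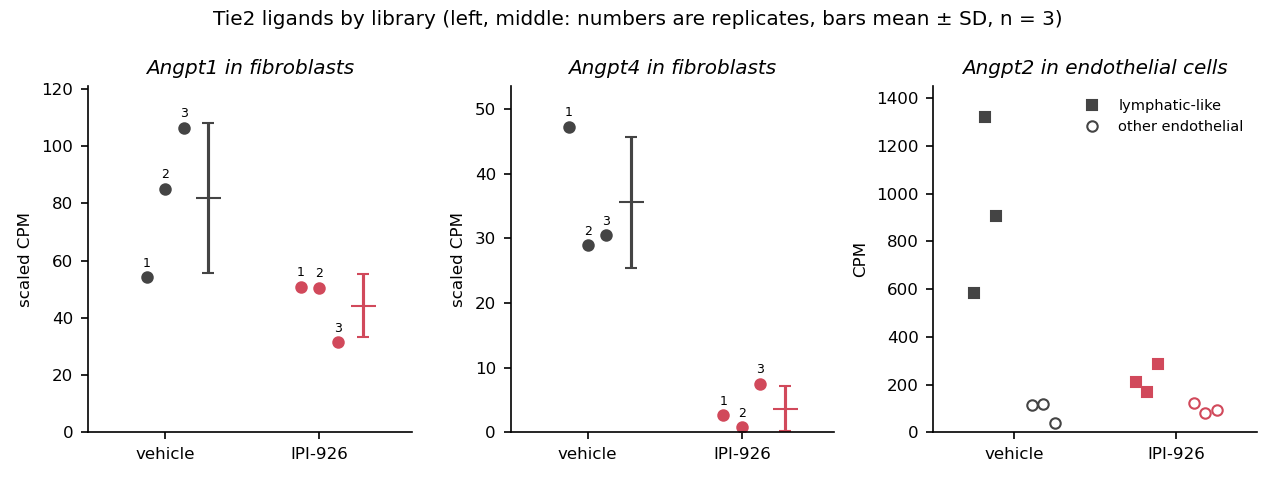
Left and middle, scaled CPM of Angpt1 and Angpt4 in fibroblasts of each library, with replicate numbers and the mean ± SD of 3 libraries per group. Right, CPM of Angpt2 in lymphatic-like endothelial cells (squares) and in all other endothelial cells (open circles). Angpt4 lies between 28.9 and 47.2 in vehicle and between 0.791 and 7.53 after IPI-926.

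Svep1, a matrix protein that binds Tie1 and Tie2, was also a fibroblast gene, with 91.0% of its 9820 UMIs there. It had 286, 339 and 126 scaled CPM in vehicle and 141, 326 and 5.67 after IPI-926, a log2 fold change of -0.68 (SE 1.15), and the groups overlapped. The second apelin receptor ligand, Apela, had no UMI in endothelial cells.

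No other listed gene of the pathway passed with edgeR. Of 22 listed angiopoietin, Tie and apelin partners 16 were tested in endothelial cells, 0 rose and 0 fell, 4 had a positive and 12 a negative fold, and the median log2 fold change was -0.12, against -0.01 for all genes. Foxo1, the transcription factor that Tie2 signalling keeps out of the nucleus, had 112, 83.0 and 96.5 scaled CPM against 95.6, 89.8 and 71.9 (log2 fold change -0.18, SE 0.19). Klf2, a flow-induced factor of quiet endothelium, had a fold of -0.12 (SE 0.29), the nitric oxide synthase Nos3 of 0.17 (SE 0.17) and the junction cadherin Cdh5 of -0.17 (SE 0.16). In perivascular cells 13 partners were tested, 0 rose and 0 fell, with a median fold of 0.03. In fibroblasts 18 were tested, 0 rose and 0 fell with edgeR, 12 of 18 had a negative fold and the median was -0.18.

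Of 25 tip cell and sprouting genes, all tested in endothelial cells, 0 rose and 0 fell, while 22 had a negative fold and 3 a positive one, with a median of -0.29. Without vehicle replicate 2, the library with the largest tip-like share (37.7% of its endothelial cells, against 17.3% and 10.9% in the other vehicle and 24.6%, 20.99% and 0.893% in the IPI-926 libraries), 16 were negative and 9 positive, and the median was -0.13. Members of this list share cells with Esm1 and Apln, so its signs are not independent of theirs. The Notch ligand Dll4 had a fold of -0.14 (SE 0.25), Kdr, the main VEGF receptor, of -0.21 (SE 0.17) and Cxcr4, a chemokine receptor of tip cells, of -0.29 (SE 0.39). Pdgfb, which recruits pericytes, had -0.31 (SE 0.23), the basement membrane gene Nid2 -0.39 (SE 0.23) and Plvap, of fenestrated capillaries, 0.12 (SE 0.17). Adm, which encodes adrenomedullin, had 108, 67.5 and 24.1 scaled CPM against 16.7, 48.8 and 40.9 (log2 fold change -0.91, SE 0.62). None of these passed.

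All 9 tested of 10 VEGF ligands and receptors had a negative fold in endothelial cells, with a median of -0.29, and 0 fell by the test. They included Flt1 (-0.29, SE 0.25), the VEGF decoy receptor, and Pgf (-0.57, SE 0.49), a ligand of Flt1. Pgf, Kdr, Nrp1 and Nrp2 are also on the list of tip cell and sprouting genes, so the signs of these lists are not independent. Of all 10343 genes tested in endothelial cells 5021 had a positive fold. Vegfa had 180, 129 and 73.8 scaled CPM in vehicle fibroblasts and 231, 183 and 78.6 in IPI-926 ones, a log2 fold change of 0.36 (SE 0.48). Low-oxygen response genes had a median fold of 0.16 in endothelial cells (8 positive and 5 negative of 13). In fibroblasts all 14 tested were positive with a median of 1.012, 0.71 without the clusters of IPI-926 replicate 3, and 0 passed.

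In the other classes compared none of the 8 genes passed. T and NK cells, neutrophils, dendritic cells and B cells were not compared between the groups. In mesothelial cells edgeR called 10 of 10799 genes (0.0926%) over 3 vehicle and 2 IPI-926 libraries, and none of the 8 had enough counts there. In ductal epithelial cells 7 of the 8 were tested at levels up to 10.5 scaled CPM, and 0 passed, as for all 14550 genes (0%), with 425 at an unadjusted p under 0.05, 29 called by DESeq2 and 0 by limma-voom. In macrophages and monocytes only Angpt2 was tested, and it did not pass. There edgeR called 0 of 12296 genes (0%), 219 had an unadjusted p under 0.05, DESeq2 called 1 and limma-voom 0.

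Summed over all kept cells, Tek, Tie1 and Ptprb had lower values in each IPI-926 library than in any vehicle library, and none passed the threshold. Tek had 3.52, 4.55 and 5.25 scaled CPM in vehicle and 2.81, 2.27 and 2.08 in IPI-926 libraries (log2 fold change -0.90, SE 0.34). Tie1 had 7.41, 12.3 and 7.65 against 7.24, 4.86 and 5.85 (-0.61, SE 0.32), and Ptprb 23.6, 20.9 and 31.3 against 17.5, 11.6 and 9.50 (-0.97, SE 0.31). These were 3 of the 8 genes, against a non-overlapping share of 7.35% of all genes. Their adjusted p-values were 0.9999 with edgeR. In such sums fewer endothelial cells and less RNA per endothelial cell cannot be told apart. Over all kept cells edgeR called 0 of 17894 genes (0%), 676 had an unadjusted p under 0.05, DESeq2 called 119 and limma-voom 0, again none of the 8.

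The balance of the opposed ligands Angpt2 and Angpt1 over a whole library varied widely within each group. The log2 ratio of Angpt2 to Angpt1 UMIs was 0.74, -1.003 and -1.13 in vehicle replicates 1 to 3 and 0.02, 0.05 and -2.47 in IPI-926 replicates 1 to 3. The lowest value belonged to IPI-926 replicate 3, with its 4149 fibroblasts. The groups overlapped and differed by -0.34 (exact permutation test, two-sided, p = 0.8). Without that library the difference was 0.50 and without vehicle replicate 1 it was 0.26, so its direction rests on each of these libraries.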

How the data were processed

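Single-cell RNA was measured in 6 pancreatic tumour libraries, 3 of each group by the labels. The deposited values are raw UMI counts per gene and barcode, without normalization. The authors' pipeline was cellranger 6.1.2 per the file headers. The submitters' processing notes give another version, Cell Ranger 2.1.1, and mm10. Gene positions came from GENCODE on GRCm38.

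Barcodes under 500 UMIs or 300 genes, or over 20% mitochondrial UMIs, were dropped, leaving 54911, and 5114 doublets, scored against simulated ones in each library, were removed. Log counts of all libraries together, without the 8 genes and sex-linked genes and without batch integration, were clustered with Leiden (leidenalg 0.10.2) at resolution 1. Of 52 clusters 11, with 11498 cells, matched no class by the marker rule and stayed unnamed. A cluster needed at least 3 markers of its class at 50 CPM or more, in 25% of its cells and above 2-fold the rest. A sub-cluster led by more markers of another class than of its own stayed unnamed. No pair of libraries shared more than 59 barcodes or had the same profile (chi-square per degree of freedom at least 314).

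Counts were summed per library and class with at least 20 cells and tested with edgeR 4.0.16 in R 4.3.3 (TMM, filterByExpr, robust quasi-likelihood, two-sided, Benjamini-Hochberg over the genes of the class, threshold 0.05). DESeq2 1.42.0 and limma-voom (limma 3.58.1) were alternatives, as were scaling, filters, doublets, equal cells, other resolutions, marker-gated endothelial cells and each library left out. Fits were tested on simulated data with 200 genes changed. Among 10164 genes in endothelial cells edgeR recovered 20% of log2 changes of 1 and 89% of those of 2. Among 11883 in fibroblasts it recovered 0% and 37%, so a gene that did not pass may still differ by such amounts. It also called 17 unchanged genes in endothelial cells and 6 in fibroblasts. The test in tip-like cells was not made for want of libraries. Where libraries had fewer cells or UMIs, values are less precise, and permutation p-values cannot go below 0.1.

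The rule for named genes took the 8 genes in every class, 17 listed partner, sprouting and VEGF genes whatever their result, and the 3 genes of most similar profile. Members, lists and markers were chosen with earlier results of these data known, so they are no independent support. No p-value was adjusted over a list alone. One allele that all 6 mice share is not reported here.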

Additional observations from a re-analysis of the deposited data

How the results depend on the processing

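No paired analysis was possible because the labels number no replicates, and the numbers used here only name the libraries. Of the recomputed values 570 kept their direction and side of the threshold, 42 changed sign, 9 counts of called genes moved and 1 fold came past the threshold. No fold of the 8 genes passed under any alternative (smallest adjusted p 0.354, Angpt1 in fibroblasts with limma-voom). Genes called numbered 7 (DESeq2), 1 (no filter on low counts) and 4 (marker-gated cells) in endothelial cells, 29 in fibroblasts (DESeq2), and 9 (DESeq2) and 39 (no filter) in perivascular cells, against 0. Leaving out 1 library gave 0 to 3 calls in endothelial and 0 to 5 in perivascular cells. Angpt4 in fibroblasts passed with DESeq2 (-3.08).

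Some log2 folds changed sign. With equal cells per library Adm in fibroblasts was -0.11, Vegfa in fibroblasts -0.20, Apln in endothelial cells -0.62 and Flt1 0.019, while Angpt1 in perivascular cells gave no value. With limma-voom Aplnr and Esm1 in fibroblasts were -1.20 and 1.78. With doublets kept Aplnr in fibroblasts was -0.038 and Tie1 in endothelial cells 0.012. Svep1 in fibroblasts was 0.031 without the clusters of 1 library. Without lymphatic-like cells Angpt2 was 0.17 in endothelial cells, and without sub-clusters led by genes of other cells Aplnr was 0.023, both alternatives chosen after seeing the data.

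With each library left out in turn, endothelial folds ranged from -0.23 to 0.66 for Apln, -0.36 to 0.14 for Aplnr, -0.39 to 0.16 for Esm1, -0.53 to 0.18 for Cxcr4, -0.43 to 0.030 for Dll4 and -0.37 to 0.17 for Klf2. Fibroblast folds ranged from -0.21 to 0.87 for Adm, -0.22 to 0.998 for Aplnr, -0.94 to 0.84 for Esm1 and -1.25 to 0.057 for Ptprb, and Angpt1 in perivascular cells from -0.050 to 0.77. The log2 ratio of Angpt2 to Angpt1 differed by -0.76 to 0.50 between the groups. The difference in the share of endothelial cells with a UMI, IPI-926 minus vehicle in percentage points, ranged from -2.69 to 5.86 for Apln and -4.15 to 2.75 for Esm1. That of Angpt2 was 0.349 at 1000 and 1.51 at 4000 UMIs per cell. Without thinning it was 5.11 for Angpt2, 0.570 for Angpt1, 1.28 for Aplnr, 3.08 for Tek and 1.31 for Tie1. The cause of these changes was not tested. At Leiden resolutions 0.6 and 1.5 the class of highest level stayed the same for all 8 genes. Depth limits the values of single sub-clusters: a count of 0 allows up to 145 CPM in the tip-like and 158 CPM in the venous-like cells of IPI-926 replicate 3, against 7.91 to 35.8 CPM in lymphatic-like libraries.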
